A study of Saccharomyces cerevisiae with 14 samples.

Results

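Acetate use and the glyoxylate cycle are represented in the table of cleavage sites by 4 genes, ACH1 (YBL015W), ICL1 (YER065C), MDH2 (YOL126C) and JEN1 (YKL217W). All rows whose identifier belongs to 1 of these genes were taken, which gave 7 sites in 4 genes, of 1184 distinct sites in 1010 genes. The cells were diploid budding yeast of the SK1 background, a laboratory strain that enters meiosis fast and in near synchrony. Their genotype was MAT a/alpha with lys2/lys2, ho::LYS2/ho::LYS2 and ndt80::LEU2/ndt80::LEU2 at all hours. Cells without the transcription factor Ndt80 are known to stop in pachytene of the first meiotic division. There was 1 library of polyA RNA at each of 0, 1, 2, 3, 3.5, 4, 5, 6, 7 and 8 h after induction of meiosis. Whether the 10 libraries share a culture is not stated in the labels, and no hour has a replicate, so each p-value below measures scatter over single libraries. The series also holds 4 control samples at 8 h, 2 with ime4::HIS3/ime4::HIS3 and 2 without it, which were not analysed here.

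Each value is a cleavage efficiency, the fraction of a site's RNA that was cut. MazF is a bacterial endonuclease that cuts RNA in front of an ACA motif. It does not cut when the first A of the motif carries a methyl group, the mark that the methyltransferase Ime4 writes on mRNA when yeast enters meiosis. A lower cleavage efficiency therefore is read in this assay as more methylation at that motif.

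Yeast that sporulates lives on non-fermentable carbon, commonly acetate, though the labels do not name the medium. Carbon from acetate enters metabolism as acetyl-CoA. The glyoxylate cycle then joins acetyl-CoA units into malate and oxaloacetate, from which sugars are made. ACH1 encodes a mitochondrial enzyme that can pass CoA to acetate and can split acetyl-CoA. ICL1 encodes isocitrate lyase, the enzyme that opens the glyoxylate cycle by splitting isocitrate into succinate and glyoxylate. MDH2 encodes the cytosolic malate dehydrogenase, which makes oxaloacetate from malate for gluconeogenesis. JEN1 encodes the plasma membrane carrier for lactate and pyruvate. All 4 genes are known to be repressed by glucose.

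Positions are given as in the table, within the gene and on the chromosome, since no source used here names their genome build. They are not coordinates of the reference R64 of strain S288C, where 0 of the 7 lie within the annotated gene. ACH1 had sites at position 154 (chromosome 2, 190114, plus strand) and at position 1274 (191234), 1120 bases apart. ICL1 had 1 site, at position 1825 (chromosome 5, 291573, minus strand). The MDH2 sites were at positions 791 (chromosome 15, 86573, minus strand) and 1506 (85858), 715 bases apart. In JEN1 the positions were 232 (chromosome 11, 24113, plus strand) and 1419 (25300), 1187 bases apart. In the R64 annotation the coding sequences are 1581 bases long for ACH1, 1674 for ICL1, 1134 for MDH2 and 1851 for JEN1. The ICL1 position exceeds that length by 151 and the second MDH2 position by 372, so the table counts from gene models that reach beyond the coding sequence. No site was therefore assigned to a coding or untranslated part, and no sequence is shown. The motif ACA, counted on the sense strand with overlaps, occurs 34 times in the R64 coding sequence of ACH1, 36 times in that of ICL1, 14 times in that of MDH2 and 32 times in that of JEN1. Per 1000 bases this is 21.5 in ACH1, 21.5 in ICL1, 12.3 in MDH2 and 17.3 in JEN1, against a median of 19.2 over 5705 coding sequences of at least 300 bases, of which 99.98% hold the motif. The table thus lists far fewer sites than the 4 genes have motifs.

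A value was present for 299 sites at 0 h, 1171 at 3.5 h and 626 at 8 h. For the 214 complete sites, those found in all 10 libraries, the median lay between 0.855 at 6 h and 0.926 at 0 h. Of the 7 sites, 5 had a value in every library. ACH1 154 had none at 0 h and 8 h, and JEN1 232 had none at 0, 7 and 8 h. The reads behind a value are unknown, so no counting interval can be given. Values shared to all digits by several sites were common, at 53.0% to 65.1% of the values below 1 in each library, and are mentioned below where they touch a result.

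The site at ACH1 154 had the steepest fall of the 7. At 1, 2, 3, 3.5, 4, 5, 6 and 7 h its cleavage efficiency was 0.846, 0.884, 0.697, 0.571, 0.631, 0.532, 0.429 and 0.436. It was high in both libraries of the first hours and lower in each of the 6 later ones, with its lowest values at 6 h and 7 h. The largest step between neighbouring libraries was the one of -0.187 to 3 h, and 4.61% of the 824 sites with values at 2 h and 3 h had a more negative step. Of all sites in the library, 27.4% lay below it at 1 h, 53.9% did at 2 h, then 15.5% at 3.5 h and 9.73% at 7 h. The values at 1 h and 7 h were each shared to all digits with other sites, 5 at 1 h and 4 at 7 h.

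The ACH1 site at position 1274 had no such fall. At 0, 1, 2, 3, 3.5, 4, 5, 6, 7 and 8 h it was cut by 0.823, 0.913, 0.929, 0.895, 0.847, 0.880, 0.829, 0.840, 0.710 and 0.826. A single library, at 7 h, was clearly below the rest, and the value at 8 h was close to that at 0 h. The value at 0 h was itself below each of those from 1 to 6 h. At 0, 2, 7 and 8 h, 14.4%, 70.0%, 26.8% and 38.0% of all sites lay below it. Its step to 7 h was -0.130, a step that 7.17% of 725 sites undercut. At 0, 5, 6 and 8 h its value was shared with other sites.

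**Figure D1:**
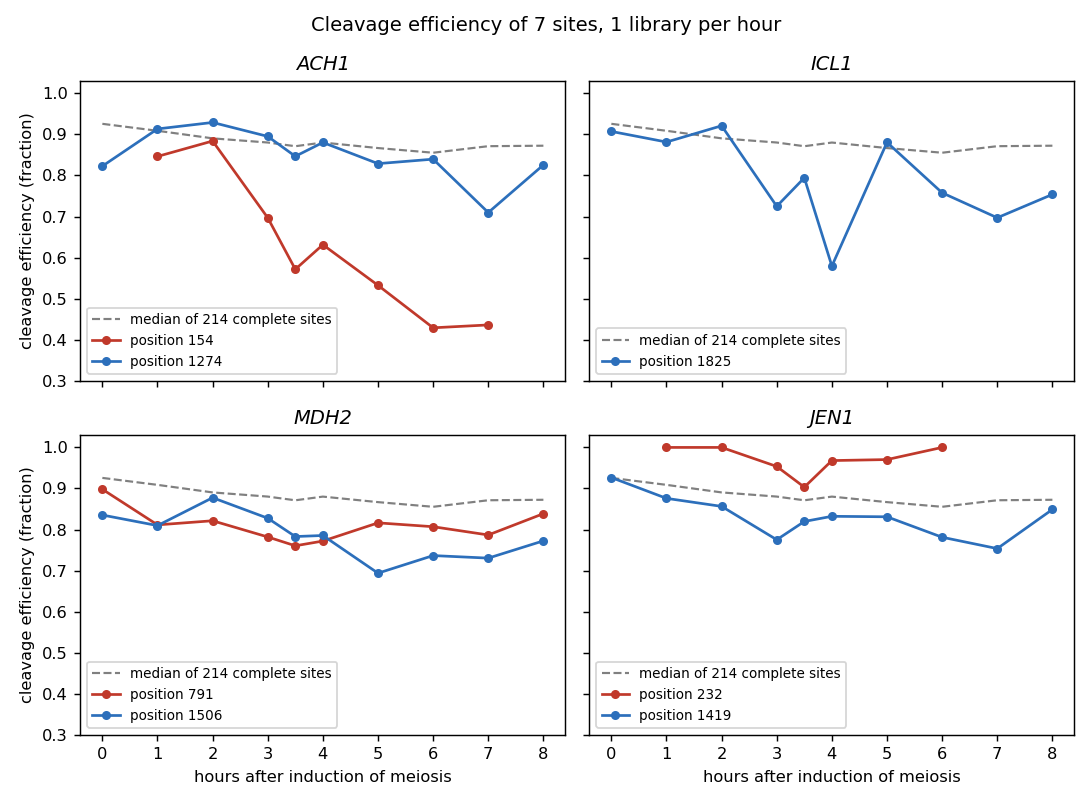
Cleavage efficiency (fraction, y axis from 0.3) against the hour after induction of meiosis for the 7 sites, each point 1 library, with the median of the 214 complete sites as a dashed line. ACH1 154 drops to 0.429 at 6 h while ACH1 1274 is at 0.840, ICL1 dips to 0.579 at 4 h, and JEN1 232 lies above the dashed line at all 7 of its hours.

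ICL1 moved up and down more than any other of the 5 complete sites of the 4 genes. At 0, 1, 2, 3, 3.5, 4, 5, 6, 7 and 8 h its cleavage efficiency was 0.907, 0.881, 0.921, 0.725, 0.794, 0.579, 0.881, 0.758, 0.697 and 0.754. The first 3 libraries were high, the one at 4 h was lowest, and the one at 5 h was back at the early level. The step of -0.215 to 4 h was undercut by 2.40% of 1123 sites, and the step of 0.301 to 5 h exceeded that of 99.4% of 1020 sites. Scatter around a straight line had an SD of 0.0983, against a median of 0.0594 over 591 sites, and 20.0% of them scattered more. With 1 library per hour, the low value at 4 h has no replicate, and the value at 0 h was shared with 3 other sites.

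Both sites of MDH2 were below the median of the complete sites at all 10 hours. Of all sites in a library, 20.6% to 44.8% lay below MDH2 791 and 18.4% to 51.5% below MDH2 1506. For MDH2 791 the values at 0, 1, 2, 3, 3.5, 4, 5, 6, 7 and 8 h were 0.898, 0.811, 0.821, 0.782, 0.760, 0.772, 0.816, 0.807, 0.787 and 0.839. It was lowest in the 3 libraries from 3 to 4 h and returned part of the way after them. For MDH2 1506 the values at 0, 1, 2, 3, 3.5, 4, 5, 6, 7 and 8 h were 0.835, 0.810, 0.878, 0.828, 0.783, 0.785, 0.694, 0.737, 0.730 and 0.772. Here the 4 libraries from 5 to 8 h were the lowest, below all 6 earlier ones.

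The JEN1 sites differed in level, with position 232 the higher. For JEN1 232 the values at 1, 2, 3, 3.5, 4, 5 and 6 h were 1.00, 1.00, 0.954, 0.903, 0.968, 0.970 and 1.00. It was cut almost fully in each library that held it, with its lowest value at 3.5 h. Its value at 3 h was shared with 7 other sites and the one at 4 h with 1. A value of exactly 1 was held by 111 sites at 1 h, 144 at 2 h and 73 at 6 h. For JEN1 1419 the values at 0, 1, 2, 3, 3.5, 4, 5, 6, 7 and 8 h were 0.927, 0.876, 0.856, 0.775, 0.820, 0.832, 0.831, 0.781, 0.754 and 0.849. Its lowest libraries were at 7 h and 3 h, with higher values between them and at 8 h, where it shared its value with 6 other sites.

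Steady change over the course was tested by a straight line in the hour, fitted with limma to the 591 sites present in at least 8 libraries and adjusted by Benjamini-Hochberg. Of the 6 tested sites of the 4 genes, 1 fell and 0 rose, where 3.05% of all tested sites fell and 0% rose. The site that fell was ACH1 154, with a slope of -0.0807 ± 0.0158 per hour (SE, adjusted p = 0.0445, 8 libraries). Ranked from the most negative slope, it was number 5 of 591, over 1 to 7 h. The rank sets unlike spans side by side, since the 214 complete sites were fitted over 0 to 8 h. Without the 8 h library, which does not hold ACH1 154, the median slope of the 591 sites was -0.00942. In that fit 50 of the 591 fell and 0 rose at an adjusted p under 0.05. The call was near the threshold of 0.05 and rested on every library: without any 1 of the 8 libraries that hold the site the adjusted p lay between 0.0558 and 0.116 (limma). Slopes of the other tested sites were -0.0223 ± 0.0119 in ICL1 (adjusted p = 0.340), -0.0150 ± 0.00741 in MDH2 1506 (0.312), -0.0140 ± 0.00728 in ACH1 1274 (0.334), -0.0127 ± 0.00671 in JEN1 1419 (0.340) and -0.00468 ± 0.00691 in MDH2 791 (0.769). None of these 5 passed or had an unadjusted p under 0.05, so that 1 of 6 was below it with a negative slope, where 16.2% of all tested sites were. All 6 slopes were negative, as were 72.8% of all tested slopes, and their median was -0.0145 per hour, against -0.00614 over all tested sites. After shifting the libraries to 1 median, 50.8% of all tested slopes were negative and their median was -0.000169, and the slope of MDH2 791 turned positive, at 0.00202. Leaving out 1 library moved the slope of ACH1 1274 to -0.00743 without 7 h and to -0.0224 without 0 h, that of JEN1 1419 to -0.0203 without 8 h and to -0.00800 without 0 h, and that of MDH2 791 to -0.00985 without 8 h and to 0.00251 without 0 h. JEN1 232, with 7 values, entered a fit over all 1130 sites with at least 4 values, where its slope was -0.00213 ± 0.00776 (limma, adjusted p = 0.909).

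The course was also split into 3 windows, 0 to 2 h, 3 to 4 h and 5 to 8 h, to ask when a change took place. From 5 to 8 h, ACH1 154 averaged 0.466 ± 0.0578 (SD, n = 3), against 0.865 ± 0.0266 from 0 to 2 h (n = 2). The difference between late and early hours was -0.399 ± 0.0762 (SE, limma, adjusted p = 0.0332), and the 3 late values lay below both early ones. Of the 6 tested sites, 1 was lower late and 0 were higher, where 3.63% of 496 tested sites were lower and 0% higher. The late values of ACH1 154 end at 7 h, and without the 8 h library 29 of 495 tested sites were lower and 0 higher. After shifting the libraries to 1 median, 7 of the 496 were lower and 4 higher. In this comparison the call for ACH1 154 was lost without any 1 of the 3.5, 4, 6 or 7 h libraries (adjusted p from 0.0505 to 0.0814), and the site could not be tested without 1 h or 2 h. MDH2 1506 averaged 0.733 ± 0.0322 late (n = 4), against 0.841 ± 0.0343 early (n = 3), a difference of -0.108 ± 0.0430 (adjusted p = 0.177). In ICL1 the means were 0.772 ± 0.0774 late and 0.903 ± 0.0201 early, a difference of -0.131 ± 0.0595 (adjusted p = 0.231). JEN1 1419 differed by -0.0826 ± 0.0402 (adjusted p = 0.267), ACH1 1274 by -0.0874 ± 0.0433 (0.268) and MDH2 791 by -0.0315 ± 0.0400 (0.662). Without 7 h the difference in ACH1 1274 was -0.0570, while that in MDH2 791 was -0.00423 without 0 h and -0.0476 without 1 h. All late values lay below all early values at 4 of the 6 sites, ACH1 154, ICL1, MDH2 1506 and JEN1 1419, and at 23.4% of the 496. In ICL1 that separation was narrow, with 0.8806 as the highest late value and 0.8814 as the lowest early one.

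Between the early and the middle window the steepest differences were in ACH1 154 and ICL1. ACH1 154 was at 0.633 ± 0.0628 from 3 to 4 h (n = 3), a difference from 0 to 2 h of -0.232 ± 0.0762 (adjusted p = 0.287). ICL1 was at 0.699 ± 0.110, a difference of -0.204 ± 0.0636 (limma, adjusted p = 0.238). Neither passed, and 0% of the 496 sites were lower or higher at an adjusted p under 0.05. The early to middle difference in ICL1 was -0.144 without the 4 h library and -0.251 without the 3.5 h library. At an unadjusted p under 0.05, 2 of the 6 sites were lower in the middle window, ACH1 154 and ICL1, and 9.88% of all tested sites were. From the middle to the late window ACH1 154 differed by -0.167 ± 0.0681 (unadjusted p = 0.0334, adjusted p = 0.873 by limma), while the estimate in ICL1 was 0.0728 ± 0.0595 and that in MDH2 791 was 0.0407 ± 0.0400. The ICL1 estimate rested on single libraries, at 0.0127 without 4 h, 0.0367 without 5 h and 0.120 without 3.5 h. Of the 6 sites 0 passed in this comparison, as did 0% of all sites in either direction, and 1 of the 6 was lower at an unadjusted p under 0.05, where 4.23% were.

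**Figure D2:**
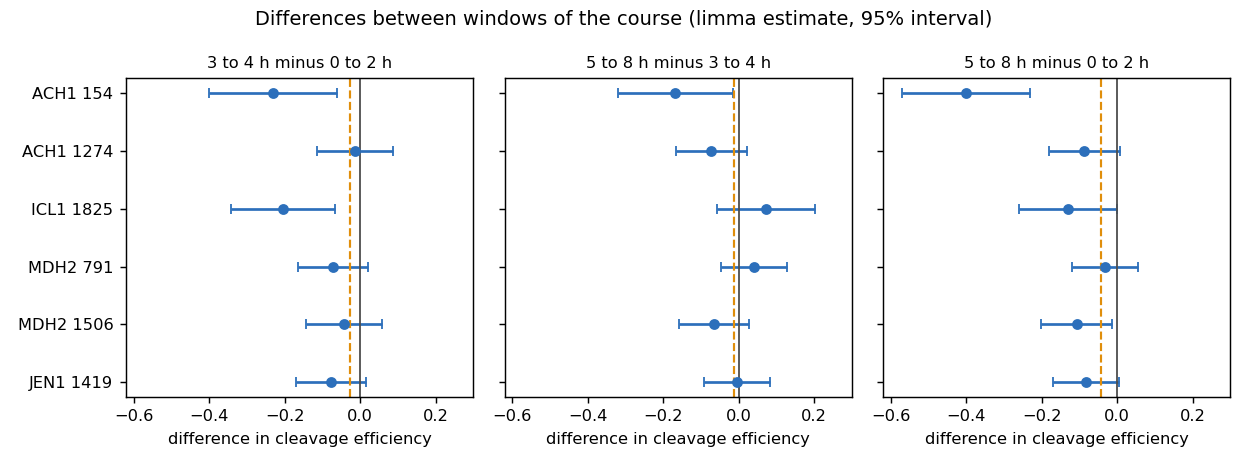
Differences in cleavage efficiency (x axis, fraction) between windows of the course for the 6 tested sites, later minus earlier, as limma estimates with 95% intervals, with the median of the 496 tested sites as a dashed line. ACH1 154 is the 1 site past the adjusted threshold, at -0.399 in the late against early comparison, and ICL1 is negative in the middle against early panel and positive at 0.0728 in the late against middle panel.

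The sites of ACH1 were then set against each other, hour by hour. At each of the 8 hours that both held, position 154 was cut less than position 1274. The difference, 154 minus 1274, at 1, 2, 3, 3.5, 4, 5, 6 and 7 h was -0.0670, -0.0452, -0.198, -0.275, -0.249, -0.296, -0.411 and -0.274. It was small in the first 2 of these libraries and at least 0.198 in size from 3 h on. Its mean was -0.227 ± 0.121 (SD over 8 hours, two-sided exact sign-flip permutation p = 0.00781, the smallest 8 hours can give, adjusted p = 0.0164 over 61 pairs). Such differences in level were common, with 57.4% of 61 same-gene pairs past the threshold and 39.3% with 1 site lower at every shared hour, and by size the ACH1 pair was number 19.

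Over these 8 hours the slope was -0.0807 per hour at ACH1 154 and -0.0302 at ACH1 1274. The slope of the difference was -0.0505 per hour (two-sided exact permutation p = 0.0116, adjusted p = 0.0899 over the 61 pairs, n = 8 hours). By size it was number 5 among the pairs, of which 3.28% passed and 18.0% had an unadjusted p under 0.05. The pair of ACH1 thus differed in level by this test and did not pass for a change of the difference with the hour. Leaving out the 7 h library, in which ACH1 1274 had its lowest value, gave -0.0721 per hour (exact permutation, adjusted p = 0.0484), the one omission with which the slope of the difference passed. With any other library left out the adjusted p was 0.0708 to 0.328.

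In MDH2 the pair changed order over the course. The difference, 791 minus 1506, was 0.0628 and 0.00174 at 0 and 1 h, then -0.0562, -0.0457, -0.0225 and -0.0135 at 2, 3, 3.5 and 4 h, and 0.123, 0.0703, 0.0564 and 0.0662 at 5, 6, 7 and 8 h. Position 791 was thus lower in the 4 libraries from 2 to 4 h and higher in the other 6, though by only 0.00174 at 1 h. The mean difference was 0.0242 ± 0.0592 (SD, exact sign-flip permutation p = 0.232, adjusted p = 0.284, n = 10 hours), and the slope of the difference was 0.0103 per hour (permutation p = 0.187, adjusted p = 0.430). Neither differed from 0 beyond the spread over hours. The JEN1 pair shared 7 hours, under the minimum of 8, and was not tested. JEN1 232 was above JEN1 1419 at all 7, by 0.0836 at 3.5 h to 0.219 at 6 h, with a mean difference of 0.146 ± 0.0426 (SD).

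**Figure D3:**
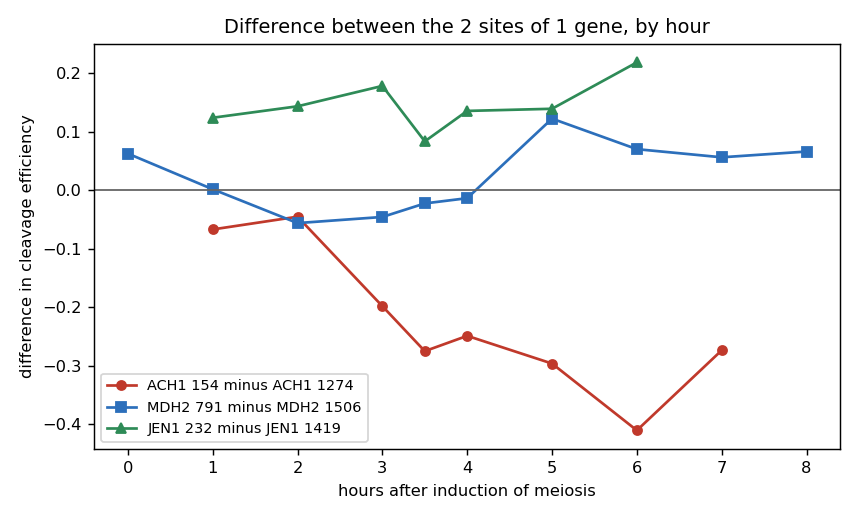
Difference in cleavage efficiency (y axis, fraction, first-named site minus second) between the sites of ACH1, MDH2 and JEN1 against the hour, each point 1 library. The ACH1 line goes to -0.411 at 6 h and is at -0.274 at 7 h, the MDH2 line crosses 0, and the JEN1 line lies above 0 at all 7 shared hours.

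By mean level over their own hours, the sites ran from JEN1 232 at 0.971 ± 0.0352 (SD over 7 hours) through ACH1 1274 at 0.849 ± 0.0622, JEN1 1419 at 0.830 ± 0.0515, MDH2 791 at 0.809 ± 0.0394, ICL1 at 0.790 ± 0.109 and MDH2 1506 at 0.785 ± 0.0551 (10 hours each) to ACH1 154 at 0.628 ± 0.172 (8 hours). Neighbours in this order were compared over the hours they shared, in 6 pairs. JEN1 232 was higher than ACH1 1274 at 7 of 7 hours by 0.0946 ± 0.0407 (SD, two-sided exact sign-flip permutation p = 0.0156, the smallest 7 hours can give, adjusted p = 0.0938). MDH2 1506 was higher than ACH1 154 at 6 of 8 hours by 0.152 ± 0.125 (exact permutation p = 0.0313, adjusted p = 0.0938). The 4 pairs between them had adjusted p-values of 0.195 to 0.887, which did not pass. Over 6 pairs the p of 0.0156 for JEN1 232 could pass after adjustment only if other pairs also had small p-values. The test therefore did not decide on that difference.

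The wider pathway was described by a list of 60 genes of acetate use, the glyoxylate and citric acid cycles, gluconeogenesis, the carnitine shuttle and their glucose-dependent regulators, drawn up when the falls in ACH1 and REG1 were already known. Besides the 4 genes, 22 of them had sites in the table, 24 in all, of which 16 could be tested for a trend. Of these 16, 1 fell and 0 rose (limma, adjusted p under 0.05), 13 had a negative slope, and 1, the same site, had an unadjusted p under 0.05. The falling site was in REG1, whose fall was known beforehand, so this count is no test of the list. Over all tested sites 3.05% fell and 0% rose, 72.8% had a negative slope, and 16.2% had one with an unadjusted p under 0.05. The median slope was -0.00367 per hour, against -0.00614 over all 591 tested sites. In the comparison of late with early hours, 1 of 15 was lower and 0 were higher, where 3.63% of all tested sites were lower and 0% higher. The lower site was again the one in REG1, so this count is no test either. The median difference over the 15 was -0.0239, against -0.0419 over all 496 tested sites and -0.0975 over the 6 sites of ACH1, ICL1, MDH2 and JEN1. These 4 genes were chosen with earlier results of these data known, so their median and counts are no test of the pathway.

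The falling site of the list was in REG1, which encodes a regulatory subunit of the phosphatase that keeps glucose repression in place (position 2962, -0.0579 ± 0.0135 per hour, limma, adjusted p = 0.0445). Its other site, at position 3300, had a slope of -0.00341 ± 0.00441. Next by p-value came MDH1, the mitochondrial malate dehydrogenase, with -0.0294 ± 0.0133 (limma, adjusted p = 0.274), and GUT2, the mitochondrial glycerol-3-phosphate dehydrogenase, with -0.0243 ± 0.0122 (0.324). The glycerol kinase gene GUT1 had -0.00856 ± 0.00520 (0.398), the pyruvate carboxylase gene PYC1 -0.00859 ± 0.00539 (0.410), and KGD2, of the alpha-ketoglutarate dehydrogenase complex, -0.00672 ± 0.00456 (0.463). None of these 5 passed.

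**Figure D4:**
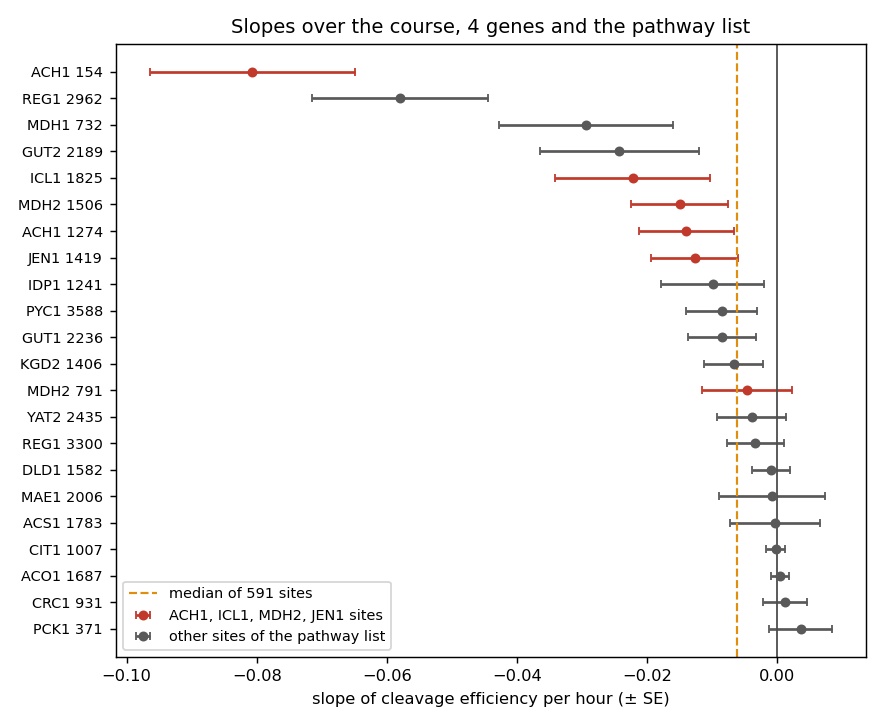
Slope of cleavage efficiency per hour (x axis, limma estimate ± SE) for the 6 tested sites of ACH1, ICL1, MDH2 and JEN1 and the 16 other tested sites of the pathway list, with the median of 591 sites as a dashed line. ACH1 154 at -0.0807 and REG1 2962 at -0.0579 are the sites that passed, and the other 20 lie between -0.0294 and 0.00360.

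For each tested site of the 4 genes, the 2 sites of other genes with the most similar course were looked up by Pearson's r over at least 8 shared libraries, as a description. All sites share these libraries and their depth, and each search ran over 446 to 589 sites. Pearson's r follows the shape of a course and takes no account of its level or of the size of its changes. ACH1 154 was most like sites in CVM1 (r = 0.961, 8 hours), of contacts between vacuole and mitochondria, and NCE103 (r = 0.957, 8 hours), the carbonic anhydrase gene. CVM1 1976 ranged from 0.478 to 1.00 and NCE103 864 from 0.448 to 0.757, so the second had the lower maximum. ACH1 1274 was closest to DSE3 (r = 0.906, 8 hours) and FEN2 (r = 0.898, 8 hours), a pantothenate carrier gene. For ICL1 the highest values were r = 0.826 over 10 hours with the ubiquitin-conjugating enzyme gene UBC1 and r = 0.805 over 9 hours with ERG5, of sterol synthesis. MDH2 791 had its highest r with MAG1 (r = 0.919, 8 hours), a DNA glycosylase gene, and GPH1 (r = 0.899, 8 hours), glycogen phosphorylase. MAG1 1064 ranged from 0.279 to 0.966, against 0.760 to 0.898 in MDH2 791. The root mean square difference from MDH2 791 was 0.367 for MAG1 and 0.0529 for GPH1. MDH2 1506 had its highest r with GCV2 (r = 0.939, 8 hours), of glycine breakdown, and HOS4 (r = 0.888, 8 hours). JEN1 1419 paired with RNY1 (r = 0.938, 8 hours), a vacuolar ribonuclease gene, and RPN11 (r = 0.898, 10 hours), of the proteasome. RNY1 796 ranged from 0.453 to 0.759, at a root mean square difference of 0.287 from JEN1 1419. None of the 12 sites was in the pathway list.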

How the data were processed

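The deposited table gives, per site and library, a cleavage efficiency as a fraction from 0.00442 to 1, made by the authors after MazF treatment, per the file headers. STAR 2.5.3a and bedtools 2.26.0 were used, per the submitters' processing notes. Not given in the sources used here are the counting of cut and uncut reads, their coverage, the build and the rule for missing values. Columns were tied to samples by their hour. The table has 4 further columns of values whose names match no label and were not used, so the ime4 deletion was not compared. Of 1198 rows, 14 repeats of a position were removed, none of them in the 4 genes. Of 1020 identifiers, 1002 matched R64 locus tags, used for names, coding lengths and motif counts only.

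Trends and windows were fitted to the fraction, unscaled, with limma 3.58.1 in R 4.3.3 (mean-dependent prior variance) and adjusted over all tested sites. Window tests needed at least 2 values per window. Pairs of sites of 1 gene with at least 8 shared hours were tested in Python 3.11.15 with NumPy 2.4.6, by exact permutation or, with 10 hours and for slopes, 100000 permutations. The limma and pair steps were tested on simulated data with independent noise. The simulated data held no shift shared by the sites of a library, so they do not cover such shifts. Each hour is 1 library, so p-values measure scatter over hours, which are not independent replicates. The genes, lists and tests were chosen with earlier results of these data known. Sites were named by rule: all rows of the 4 genes, the 6 list sites with the smallest trend p, and the 2 most similar sites per tested site; REG1 3300 was added as the second site of a named gene. Alternatives covered the logit scale, library shifts, filters, the early window and leaving out each library.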

Additional observations from a re-analysis of the deposited data

How the results depend on the processing

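The fall at ACH1 154 kept its sign under all alternatives in which it could be fitted, but not its call. The slope was -0.0739 per hour with libraries shifted to 1 median (limma, adjusted p = 0.0657), and with all sites of at least 4 values it was -0.0807 (adjusted p = 0.0843), where only the number of tested sites and the prior changed. Without 1 library each it ranged from -0.0916 to -0.0715, and the number of the 4 genes' sites called was 0 to 1. On the logit scale it passed (adjusted p = 0.0356). Late minus early it was -0.343 with 3 h among the early libraries (adjusted p = 0.0848) and ranged from -0.433 to -0.381 without 1 library each, with 0 to 1 sites called. It passed with shifted libraries and on the logit scale (adjusted p = 0.0337 and 0.0169). Over the 214 complete sites, which leave ACH1 154 out, 0 of 5 sites were called in both comparisons, and so were 0 with shifted libraries (trend), at least 4 values (trend) or the longer early window. The slope of the ACH1 difference ranged from -0.0721 to -0.0425 without 1 library each, and its adjusted p on the logit scale was 0.308. The mean difference says nothing on stability here, since all 8 differences had 1 sign and its p was at the smallest possible value in each such fit.

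Estimates that changed sign were all far from the threshold. With shifted libraries, MDH2 791 had a slope of 0.00202 and a late minus early difference of 0.0104, ACH1 1274 a middle minus early difference of 0.0167, and JEN1 1419 a late minus middle difference of 0.00545. Without 1 library each, the slope of MDH2 791 ranged from -0.00985 to 0.00251, the middle minus early difference of ACH1 1274 from -0.0472 to 0.00601, and the late minus middle difference of JEN1 1419 from -0.0222 to 0.0114. Over all sites the trend test called 18, against 0 with shifted libraries or at least 4 values, 8 over complete sites and 0 to 50 without 1 library each. Late minus early it called 18 lower and 0 higher, against 0 with the longer early window, 7 lower and 4 higher with shifted libraries and 0 to 29 without 1 library each. Depth is unknown, which limits every value. No paired analysis was possible because the replicate numbers belong to control samples that were not analysed here.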
